A study of Mus musculus with 17 samples.

Results

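Immunoglobulin variable gene segments were examined in tumor cells from KL and KLG4 lung tumors, with every gene of the tumor cell table whose symbol begins with Ighv, Igkv or Iglv and a digit taken as a member. The rule found 128 of the 16410 listed genes, 68 at the heavy chain locus, 57 at the kappa locus and 3 at the lambda locus. Among their alleles KL mice carried Lkb1fl/fl, a floxed Lkb1 (Stk11) that Cre deletes. KLG4 mice carried all alleles of KL mice and Gpx4m/m, in which Dre recombinase, expressed from a CAG promoter after Cre removes a stop cassette and activated by tamoxifen, deletes exons of Gpx4, the peroxidase that detoxifies lipid peroxides. Both genotypes received intranasal Ad-Cre, an adenovirus carrying Cre, and tamoxifen, and the primary cells were taken from tumor-bearing lungs 10 weeks after Ad-Cre. Tumor cells were gated by flow cytometry as CD45- CD31- EpCAM+ epithelial cells, a gate meant to leave out leukocytes. The tables of TRMs (tissue-resident macrophages) and MDMs (monocyte-derived macrophages) of the same genotypes were searched for the same segments. Each of these 6 groups held 2 libraries, and the study's legend for the tumor cell data counts mice in equal number to the libraries of a group. The labels do not tie a library to a mouse and no source used here gives animals for TRMs and MDMs, so p-values measure the spread between these libraries.

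V segments are the variable building blocks of antibodies. In developing B cells the RAG recombinase joins a heavy V segment to a D and a J segment, and a light chain V segment directly to a J segment. The joined exon is then spliced to a constant region. In mice most light chains are kappa chains. An unrearranged V segment is transcribed little, whereas a rearranged one lies close to the enhancers of its locus and is transcribed strongly in B cells and above all in plasma cells, the antibody secreting cells. Lung epithelial cells are not known for V(D)J recombination.

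The deposited coordinates are those of the mouse build GRCm38. The heavy chain members span chromosome 12 from 113588267 to 116000461, the kappa members chromosome 6 from 67555497 to 70699067, and the lambda members chromosome 16 from 19085017 to 19260859. All 128 were found by symbol in the GENCODE M21 annotation of the same build with an identical start and end, and none is annotated as a pseudogene. That annotation holds 218 V segments that are not pseudogenes (115 heavy, 100 kappa and 3 lambda), of which 90 are not listed in the tumor cell table. Every listed gene reached 1 RPM (reads scaled to the library total) in at least 2 of the 4 libraries, the lowest second highest value being 1.005 RPM. Each segment holds a short leader exon and the exon of the variable domain. The end of the coding part is shown for the highest member of each locus in KLG4 tumor cells, and for Ighv1-26 and Igkv8-30, the highest heavy and kappa members in KL tumor cells. Each run is the last 150 coding bases of the GENCODE M21 transcript, 5′ to 3′ on the coding strand, and the capitals mark the last in-frame TGT codon, which encodes the conserved second cysteine of the variable domain just before the junction.
Ighv5-4: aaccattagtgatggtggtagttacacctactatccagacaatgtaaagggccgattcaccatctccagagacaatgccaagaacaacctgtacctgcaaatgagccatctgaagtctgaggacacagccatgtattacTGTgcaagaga
Igkv6-23: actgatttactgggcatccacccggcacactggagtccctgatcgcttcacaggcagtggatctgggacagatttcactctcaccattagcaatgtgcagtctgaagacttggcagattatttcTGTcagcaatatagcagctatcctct
Iglv1: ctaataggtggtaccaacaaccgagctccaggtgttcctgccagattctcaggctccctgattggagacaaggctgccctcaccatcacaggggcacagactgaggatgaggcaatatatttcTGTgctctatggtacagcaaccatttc
Ighv1-26: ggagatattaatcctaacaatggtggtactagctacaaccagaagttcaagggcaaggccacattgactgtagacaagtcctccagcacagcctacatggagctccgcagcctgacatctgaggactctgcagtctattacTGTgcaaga
Igkv8-30: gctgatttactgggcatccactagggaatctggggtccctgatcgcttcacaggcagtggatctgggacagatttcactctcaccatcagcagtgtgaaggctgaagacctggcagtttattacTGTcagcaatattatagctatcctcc

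The segments of a locus resemble each other, which bears on how reads can be assigned. The same 150 bases are shown for the segment nearest in coding sequence to the highest member of each locus, here with capitals at the bases that differ from that member.
Ighv5-6: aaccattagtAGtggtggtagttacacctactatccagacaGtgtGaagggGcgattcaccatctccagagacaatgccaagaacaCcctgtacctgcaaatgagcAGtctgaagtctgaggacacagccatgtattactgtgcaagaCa
Igkv6-15: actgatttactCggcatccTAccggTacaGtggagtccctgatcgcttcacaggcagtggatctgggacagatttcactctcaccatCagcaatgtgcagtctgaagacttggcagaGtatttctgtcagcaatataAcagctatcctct
Iglv2: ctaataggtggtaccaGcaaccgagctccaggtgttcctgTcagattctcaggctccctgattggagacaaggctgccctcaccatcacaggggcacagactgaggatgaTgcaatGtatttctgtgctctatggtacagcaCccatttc
Ighv5-6 is 95.5% identical to Ighv5-4 over the whole coding part and differs at 9 of the bases shown, Igkv6-15 is 94.5% identical to Igkv6-23 with 8 differences, and Iglv2 is 96.9% identical to Iglv1 with 5. Among the 128 members, 71 have another annotated V segment at least 95% identical. All stretches of 100 bases of the transcript are found in no other V segment for 78 members, and fewer than 50% are for 2 members, Ighv1-62-2 (5.60%) and Igkv6-20 (44.2%). Reads that align to several places were not counted, somatic mutation and junctions can lower the share of reads that align, and counting without strand cannot separate antisense transcripts, so the level of a single segment is less certain than the sum over a locus.

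The depth recovered from the tables was 36.6 and 30.2 M counted reads in the KL and 17.6 and 15.9 M in the KLG4 tumor cell libraries, 9.14 to 26.8 M in TRMs and 10.4 to 26.1 M in MDMs. The KLG4 tumor cell libraries differed little from each other, with a chi-square statistic of 3.28 per gene over 16260 genes against 60.4 over 15802 genes for the KL pair. For the 128 V segments alone it was 2.94 in the KLG4 pair. The pair was kept as 2 samples, and the count of calls with the pair averaged into 1 sample is given beside the main one.

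V segments were nearly silent in KL tumor cells and read at substantial levels in KLG4 tumor cells. The 128 members together took 0.00032% of the counted reads in KL replicate 1 (117 reads, 95% Wilson interval 0.000267 to 0.000383%) and 0.00265% in KL replicate 2 (802 reads, 0.00247 to 0.00284%). In KLG4 they took 0.185% in replicate 1 (32591 reads, 0.183 to 0.187%) and 0.192% in replicate 2 (30487 reads, 0.189 to 0.194%). Both KLG4 libraries thus lay far above both KL libraries, and the KL libraries differed 8.30-fold from each other. The mean share was 0.188% ± 0.00481 in KLG4 and 0.00149% ± 0.00165 in KL (SD, n = 2 each), and the difference of the mean log2 shares was 7.67, with an exact permutation p of 0.333 (two-sided), the smallest that 2 against 2 libraries can give. Against KL replicate 2 the lower KLG4 library was 69.7-fold higher, and against KL replicate 1 the higher KLG4 library was 599-fold higher. These values hold for the listed segments, of which 122 of 128 were under 1 RPM in both KL libraries and were listed through the KLG4 libraries alone. Reads of the 90 annotated segments that are not listed are not counted, so the share and its test are a description of the listed segments. These intervals cover counting error only, and most fragments were counted as 2 reads, so true counting error is larger.

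**Figure D1:**
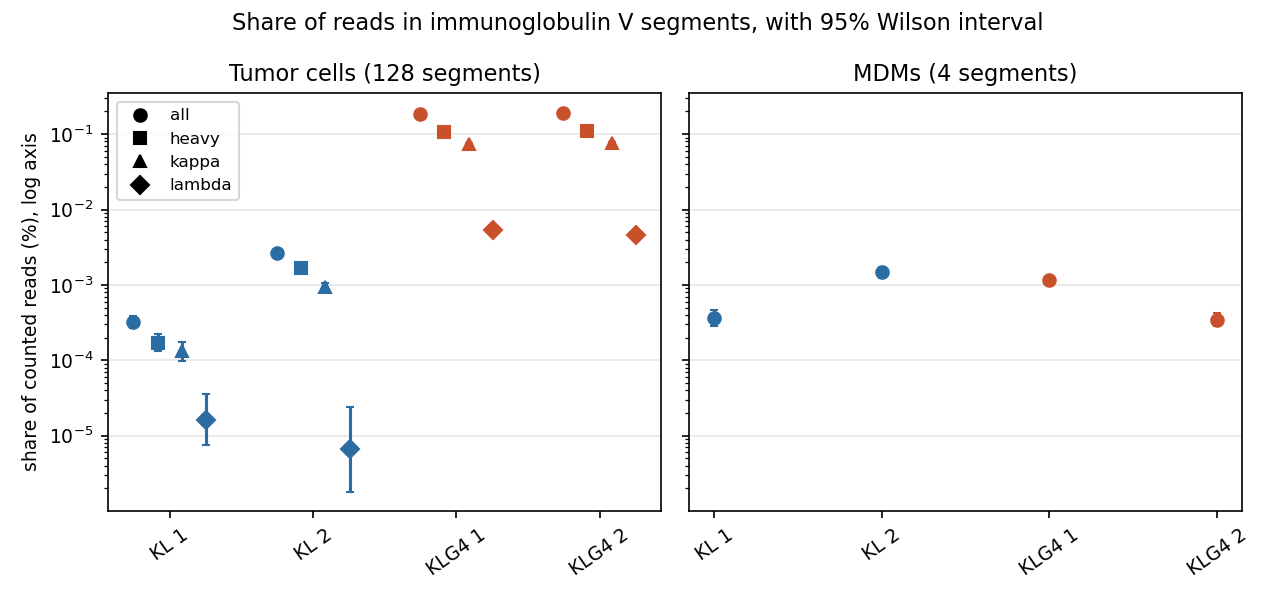
Share of counted reads in V segments for each tumor cell library (left, all members and each locus) and MDM library (right, the 4 members listed there), in percent on a log axis, with 95% Wilson intervals, KL in blue and KLG4 in orange. The KLG4 tumor cell libraries sit at 0.185% and 0.192% against 0.00032% and 0.00265% in KL, whereas the KL and KLG4 MDM libraries overlap.

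At each of the 3 loci both KLG4 libraries held more reads than either KL library. Heavy chain V segments took 63 and 514 reads in KL and 18619 and 17453 reads in KLG4, a difference of 7.64 in mean log2 share. Kappa V segments took 48 and 286 reads in KL and 13025 and 12292 in KLG4, a difference of 7.74. Lambda V segments took 6 and 2 reads in KL and 947 and 742 in KLG4, a difference of 8.91 on only 8 KL reads. The differences between loci were not tested. The exact p was 0.333 for each locus. Kappa and heavy segments were higher in KL replicate 2 than in KL replicate 1, by 7.21-fold and 9.88-fold, and lambda segments, on 8 reads in all, were not.

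All 128 members passed the filter of at least 1 RPKM (reads scaled to gene length and library total) in at least 2 libraries, 112 of them through the KLG4 libraries alone, with under 1 RPKM in both KL libraries. A member of that kind had to be higher in KLG4 to be tested, so the counts that follow describe the members and are not support for a difference. In limma 126 members were higher in KLG4 at an adjusted p under 0.05 (66 heavy, 57 kappa and 3 lambda) and 0 were lower, where 20.6% of the 13770 genes tested were higher and 19.6% were lower. Under quantile scaling 126 members were again higher, with 2585 genes higher and 4130 lower in all. With the KLG4 pair averaged into 1 sample, 112 members were higher, where 11.5% of all genes tested were higher and 2.48% lower. With 1 library left out, 127 and 128 members were higher without KL replicate 1 or 2 (22.6% and 28.2% of all genes), and 114 and 111 without KLG4 replicate 1 or 2 (11.6% and 11.3%). By the cutoff that the study applied (at least 2-fold, p under 0.05 without adjustment), 127 members were higher (16.6% of all genes tested). For 127 members the lowest KLG4 value exceeded the highest KL value (32.5% of all genes tested). The median difference on the log2(RPKM + 0.1) scale was 6.85 over the members, with a range of 2.41 to 10.57, and -0.09 over all genes tested. This scale understates the change of low genes.

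**Figure D2:**
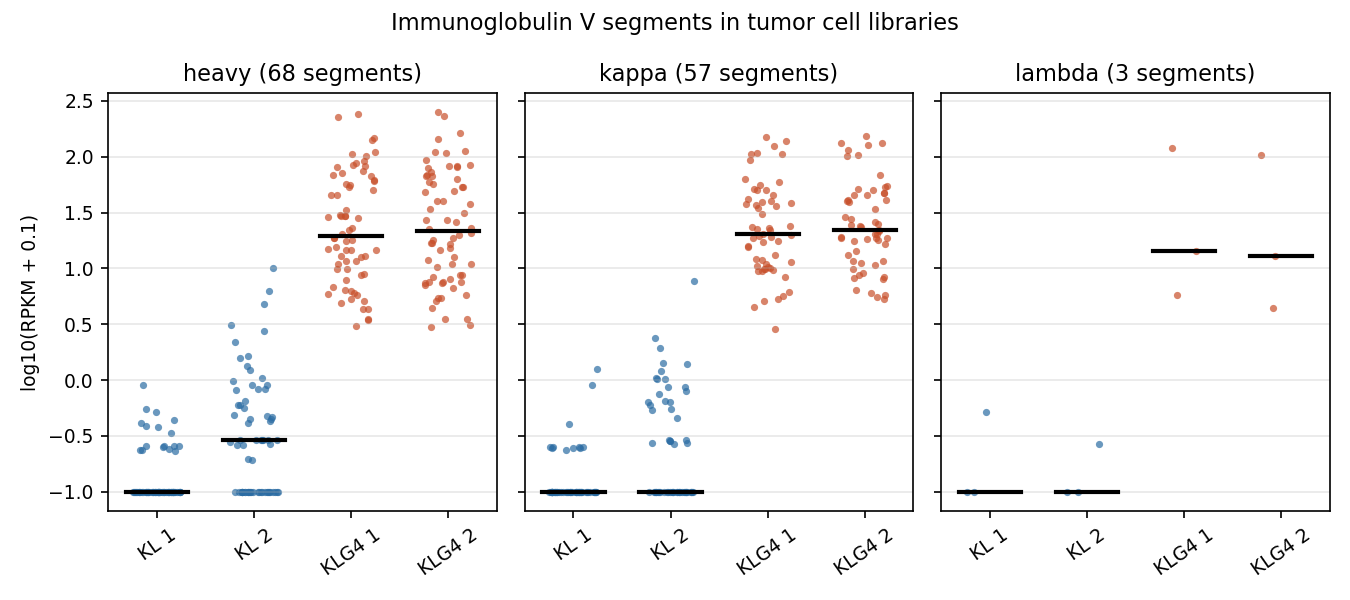
Level of each V segment as log10(RPKM + 0.1) in the 4 tumor cell libraries, for the heavy, kappa and lambda loci, with KL in blue, KLG4 in orange and a black bar at the median. Segments listed at 0 sit at -1, which is the median in KL 1 at each locus and in KL 2 at the kappa and lambda loci, and no segment is at 0 in KLG4.

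Many members had no read in KL. Of the 128 members 53 had no read in either KL library (24 heavy, 27 kappa and 2 lambda), 99 had none in KL replicate 1 and 59 none in KL replicate 2, whereas none was at 0 in a KLG4 library. This contrast was in large part fixed by the listing, since 122 members were under 1 RPM in both KL libraries and could be listed only by reaching 1 RPM in both KLG4 libraries. It is a description and supports nothing. In KLG4 the members ranged from 2.79 to 249 RPKM. Their mean over both KLG4 libraries was under 10 RPKM for 30 members, 10 to 50 RPKM for 63, 50 to 100 RPKM for 21 and at least 100 RPKM for 14. In KL only 1 member reached 1 RPKM in replicate 1 and 16 did in replicate 2. Taken as the ratio of pooled reads per counted read, with a floor of 3 reads over the KL group where it had none, the members' median was 117-fold with 53 members at that floor. Most fragments were counted as 2 reads and libraries vary, so folds at the floor are not strict lower bounds.

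Among heavy chain members the highest in KLG4 was Ighv5-4 (chromosome 12, 113597446 to 113597977, minus strand). It was at 0 and 0.311 RPKM in KL and at 242 and 234 RPKM in KLG4, a log2 difference of 10.20 ± 0.64 (SE; adjusted p 0.000392). The 2 KLG4 values lay close together and far above the 4 reads seen in KL. Ighv1-72 (115757984 to 115758461, minus strand) was at 0.414 and 2.67 RPKM in KL and at 226 and 249 RPKM in KLG4, a log2 difference of 7.64 ± 0.75 (SE) with an adjusted p of 0.00127. Its KLG4 range encloses that of Ighv5-4, so the order of these 2 is not set. Only 57.2% of its 100-base stretches are unique, since Ighv1-62-3 is 99.1% identical.

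Ighv1-18 (114682632 to 114683065) was at 0.156 and 0.188 RPKM in KL and 140 and 163 RPKM in KLG4, a log2 difference of 9.12 ± 0.17 (SE). Ighv2-2 (113588267 to 113588702), the member closest to the J segments, had no read in KL and was at 149 and 145 RPKM in KLG4. By pooled reads, with KL at the floor of 3 reads, it was 1151-fold higher. Its groups are separated by the widest margin at this locus on the log2 scale, 10.52 ± 0.16 (SE). Ighv1-9 (114583569 to 114584002) was at 0.233 and 0 RPKM in KL and 111 and 112 RPKM in KLG4, a pooled ratio of 871 on 3 KL reads with an exact 95% counting interval of 297 to 4229.7. Adjusted p-values of these 3 were at most 0.00036.

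The heavy chain members highest in KL were high in replicate 2 only. Ighv1-26 (114788372 to 114788805) was at 0 RPKM in KL replicate 1, 9.985 RPKM in KL replicate 2, and 44.9 and 53.0 RPKM in KLG4. Its log2 difference of 5.60 ± 2.03 (SE) had an adjusted p of 0.0786, and the groups did not overlap. Ighv1-12 (114615850 to 114616318) was at 0 and 6.17 RPKM in KL and 2.94 and 5.70 RPKM in KLG4, so that KL replicate 2 exceeded both KLG4 libraries. It was the one member whose groups overlapped, with a log2 difference of 2.41 ± 1.85 (SE), an adjusted p of 0.342, and -0.58 without KL replicate 1.

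Ighv2-9 (113879096 to 113879541) was at 0 and 4.66 RPKM in KL and at 45.6 and 49.6 RPKM in KLG4 (adjusted p 0.0375). Ighv1-39 (114914599 to 114915032) was at 0 and 3.01 RPKM in KL and at 18.7 and 22.9 RPKM in KLG4 (adjusted p 0.0429). Both rose on the main test, and both calls were lost without either KLG4 library, with log2 differences of 6.05 and 6.17 for Ighv2-9 and of 5.08 and 5.37 for Ighv1-39. With all libraries kept, both calls were also lost with a pseudocount of 0.01 (limma adjusted p 0.0818 and 0.0923) and without the mean-variance trend (0.0538 and 0.0599). That of Ighv1-39 was lost where the mean had to reach 5 RPKM (0.053). Both were also lost with the KLG4 pair averaged into 1 sample, with log2 differences of 6.11 for Ighv2-9 and 5.23 for Ighv1-39. With Ighv1-72 these 4 are the 5 heavy chain members with the highest mean in KL.

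Among kappa members Igkv6-23 (chromosome 6, 70260409 to 70260955, minus strand) was the highest in KLG4, at 151 and 153 RPKM, with no read in KL. The log2 difference was 10.57 ± 0.16 (SE) with an adjusted p of 3.26e-05, the widest of all members, and at least 1249-fold by pooled reads. Igkv8-21 (70314895 to 70315472) was at 1.14 and 1.30 RPKM in KL and 140 and 127 RPKM in KLG4, a log2 difference of 6.66 ± 0.14 (SE) with an adjusted p of 5.6e-05. It was the only member above 1 RPKM in both KL libraries, on 16 and 15 reads. Igkv10-96 (68631963 to 68632442) was at 0.152 and 1.84 RPKM in KL and 125 and 134 RPKM in KLG4 (adjusted p 0.00246).

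Igkv6-15 (70406469 to 70406992) was at 0 and 0.953 RPKM in KL and at 106 and 133 RPKM in KLG4 (adjusted p 0.00267). Igkv6-17 (70371439 to 70371993, plus strand) was at 0 and 1.32 RPKM in KL and at 108 and 115 RPKM in KLG4 (adjusted p 0.00438). Both, like Igkv6-23, belong to the Igkv6 family, and in both the KL reads came from replicate 2 alone. The call of Igkv6-17 was lost without either KLG4 library, with log2 differences of 8.17 and 8.26. It was also lost with the KLG4 pair averaged into 1 sample, with a log2 difference of 8.21.

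The kappa member with the highest mean in KL was Igkv8-30 (70117061 to 70117620), at 0.148 RPKM in KL replicate 1, 7.55 RPKM in KL replicate 2, and 92.5 and 101 RPKM in KLG4 (adjusted p 0.0258). Its 84 reads were 29.4% of the kappa V reads of KL replicate 2. Igkv3-2 (70698449 to 70699067), the kappa member nearest to the J segments, was at 0 and 2.27 RPKM in KL and 23.5 and 26.1 RPKM in KLG4 (adjusted p 0.026). Both calls were lost without either KLG4 library, with log2 differences of 6.07 and 6.20 for Igkv8-30 and of 5.60 and 5.75 for Igkv3-2. They were also lost with the KLG4 pair averaged into 1 sample, with log2 differences of 6.14 for Igkv8-30 and 5.68 for Igkv3-2. The call of Igkv3-2 was also lost with a pseudocount of 0.01 (limma adjusted p 0.0693). Igkv1-117 (68121046 to 68121827) was at 0.811 and 0.655 RPKM in KL and 45.4 and 34.2 RPKM in KLG4 (adjusted p 0.000129), with reads in both KL libraries.

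All lambda members of the annotation were listed. Iglv1 (chromosome 16, 19085017 to 19085500) was at 0.419 and 0.169 RPKM in KL and 119 and 103 RPKM in KLG4, a log2 difference of 8.21 ± 0.33 (SE) with an adjusted p of 0.000134. Iglv2 (19260401 to 19260859) was at 14.1 and 12.7 RPKM and Iglv3 (19241207 to 19241690) at 5.65 and 4.29 RPKM in KLG4, with no read of either in KL. By pooled reads, with KL at the floor of 3 reads, they were 109.6-fold and 42.5-fold higher. Iglv1 held 85.7% and 85.9% of the summed lambda V level in KLG4 and all of the 8 lambda reads in KL. Kappa segments made up 93.5% and 94.6% of the summed light chain V level in KLG4, against 89.1% and 99.3% in KL, where the lambda sum rests on so few reads that no difference from KLG4 was detectable.

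Within the heavy locus the Ighv1 family, with 34 of the 68 listed segments, held 48.6% and 50.2% of the summed heavy V level in KLG4 and 62.2% and 66.8% in KL. Ighv5, with 7 segments, held 17.2% and 16.2% in KLG4 and 9.47% and 3.22% in KL. Ighv2, with 6 segments, held 11.2% and 10.9% in KLG4 and 11.2% and 12.5% in KL. At the kappa locus Igkv6, with 7 of 57 segments, held 25.1% and 26.0% in KLG4 and 8.85% and 10.5% in KL, and Igkv8, with 6 segments, held 16.2% and 15.5% in KLG4 and 41.9% and 34.5% in KL. The KL shares rest on 63 and 514 heavy and 48 and 286 kappa reads and on few segments each, and were not tested against KLG4.

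The profile over segments was alike in the KLG4 libraries and much less so in the KL libraries. Across the 128 segments Pearson's r of log2(RPKM + 0.1) was 0.971 and Spearman's rho 0.972 between the KLG4 libraries, and 0.233 and 0.235 between the KL libraries. Segments of 1 library share its depth and are no independent replicates, and the KL libraries are at the limit of counting. KLG4 replicate 1 gave an r of 0.438 with KL replicate 2 and of 0.303 with KL replicate 1. In KL replicate 2, 46 segments had reads that KL replicate 1 lacked, and 6 showed the reverse.

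**Figure D3:**
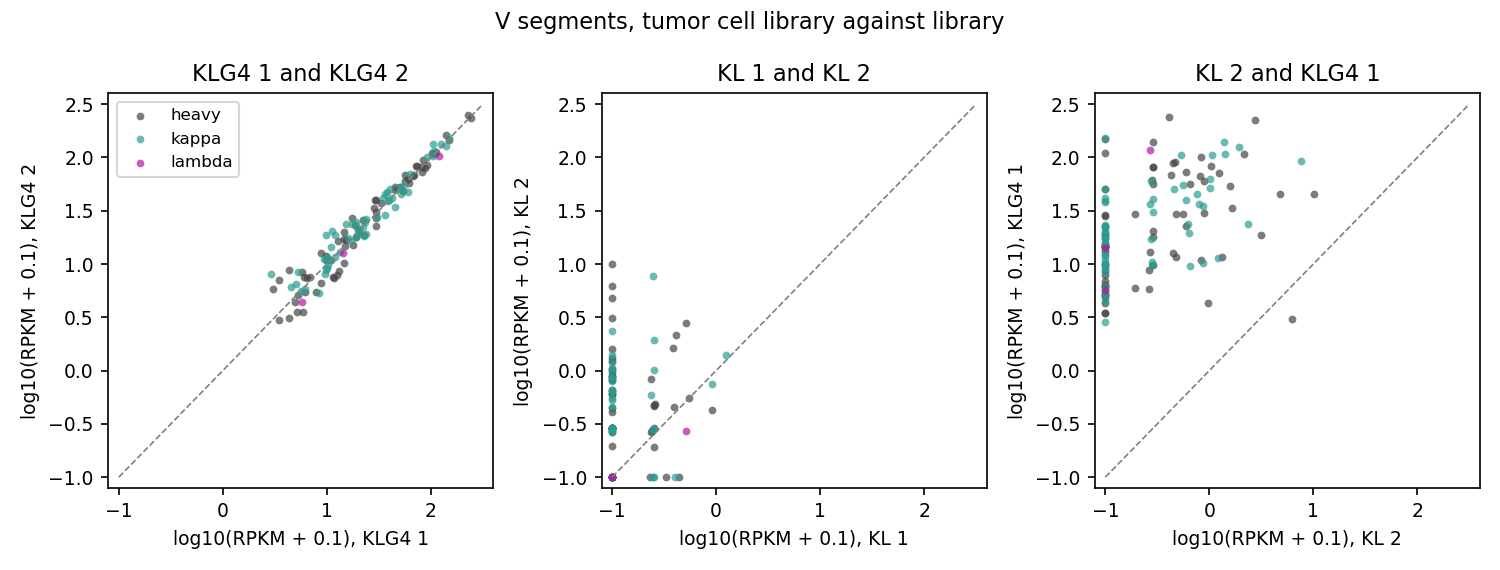
Level of each V segment, log10(RPKM + 0.1), in one tumor cell library against another, colored by locus, with a dashed line at equal levels. The KLG4 libraries follow the line (r = 0.971), the KL libraries scatter at the detection limit (r = 0.233), and nearly all segments lie above the line when KLG4 1 is set against KL 2.

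Over the listed segments, reads were less concentrated in KLG4. The 5 segments with the most reads held 19.1% and 18.9% of V reads in KLG4 and 44.4% and 43.0% in KL. The effective number of segments, the inverse of the sum of squared read shares, was 54.8 and 55.6 in KLG4 and 16.5 and 19.6 in KL. At an equal depth of 117 V reads, that of KL replicate 1, 58.6 and 59.0 segments would be seen in KLG4, 40.9 in KL replicate 2 and 29 in KL replicate 1. By each measure of spread over segments the groups did not overlap, but the listing favors KLG4 here, since 122 of the 128 segments were listed through the KLG4 libraries alone and segments read only at low levels, or in 1 library, could not enter. Since both mates of a fragment were mostly counted, 117 reads are fewer than 117 molecules, and equal read depth does not fully equalize the libraries.

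In KL replicate 2 the 5 leading heavy segments, Ighv1-26 first, held 57.0% of heavy V reads, and the 5 leading kappa segments, Igkv8-30 first, held 55.9% of kappa V reads. In KLG4 these shares were 31.7% and 31.97% for heavy and 31.8% and 31.5% for kappa segments. No segment took more than 9.75% of the heavy V reads or 7.53% of the kappa V reads of a KLG4 library.

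Segments from the whole length of both large loci were read. Heavy members lay 158 kb (Ighv2-2) to 2570.2 kb (Ighv1-85) from Ighj1, and kappa members 23.5 kb (Igkv3-2) to 3166 kb (Igkv2-137) from Igkj1. The 39 heavy members on the J side of the middle of this span held 60.8% and 59.5% of the heavy V level in KLG4 and 49.5% and 66.1% in KL. Their median KLG4 level was 26.0 RPKM against 18.3 RPKM for the 29 members beyond it, and their median log2 difference 6.85 against 6.75. For kappa the 33 nearer members held 65.5% in each KLG4 library and 54.9% and 76.3% in KL, with median KLG4 levels of 21.7 against 20.5 RPKM and median log2 differences of 6.84 against 6.996. The nearer and farther members thus had like median differences at both loci. All listed heavy members lie on the minus strand, as Ighj1 does. Of the kappa members 32 lie on the minus and 25 on the plus strand, and the minus strand held 60.9% and 60.7% of the kappa V level in KLG4 and 68.1% and 61.7% in KL.

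**Figure D4:**
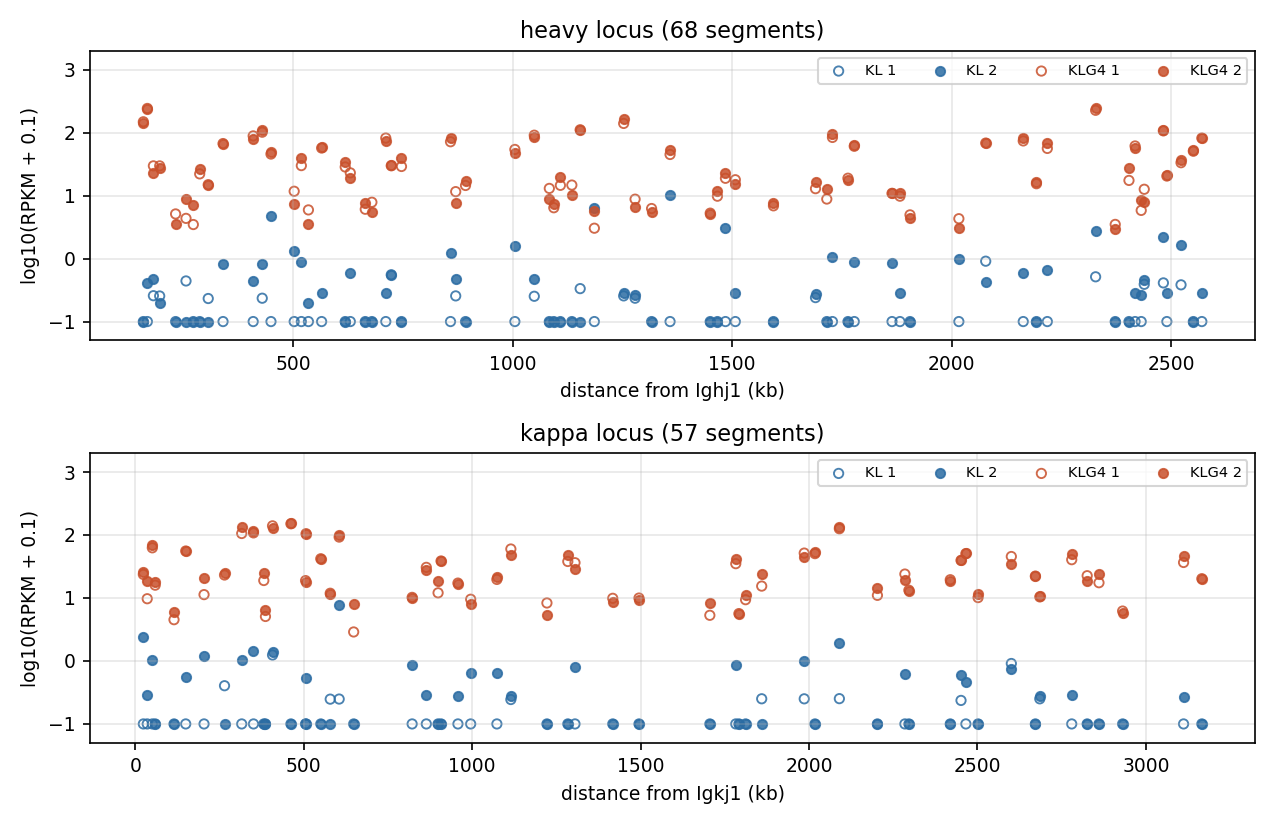
Level of each heavy (top) and kappa (bottom) V segment, log10(RPKM + 0.1), against its distance in kb from the first J segment of the locus, with KL in blue and KLG4 in orange and replicate 1 open. Orange points lie above blue points along the whole span, with the exception of Ighv1-12, where KL 2 reaches 6.17 RPKM.

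The other parts of an antibody transcript moved in the same direction. Of 14 J segments on the list, 11 were listed and all 11 were higher in KLG4, 3 of them tested through the KLG4 libraries alone, where 20.6% of all genes tested were higher. Igkj2, for example, was at 6.99 and 43.8 RPKM in KL and 2085 and 2374 RPKM in KLG4. Of 14 constant regions and the joining chain 12 were listed and all 12 were higher (again against 20.6% of all genes), 8 of them tested through the KLG4 libraries alone. These counts of 3 and 8 are for the filter at 1 RPKM. How many genes of either list were listed, at 1 RPM, through the KLG4 libraries alone was not counted. The calls of both lists are therefore a description. Igkc, the kappa constant region, was at 6.72 and 26.3 RPKM in KL and 1613 and 1640.0 RPKM in KLG4. The summed kappa V level was 0.511 and 0.976 of the Igkc level in KL and 1.23 and 1.27 in KLG4. The summed heavy V level was 1.95 and 3.03 times that of the 7 listed heavy constant regions in KL, and 3.86 and 3.996 times in KLG4. The sums hold listed segments only, of which 122 of 128 were listed through the KLG4 libraries alone, so that reads of unlisted segments are missing and these ratios are not compared between genotypes. Median log2 differences were 7.94 for the J segments and 6.94 for the constant regions.

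Most genes that assemble V segments were not listed. Of 7 genes for V(D)J recombination and the surrogate light chain only Vpreb1, a surrogate light chain subunit, was listed, at 1.32 and 1.63 RPKM in KL and 1.17 and 1.24 RPKM in KLG4 (adjusted p 0.374), and it was called lower under quantile scaling. Rag1, Rag2 and Dntt, the recombinase subunits and the terminal transferase, were not listed, so that any reads stayed below the level for listing. Among octamer factors, which bind the octamer of V promoters, the B cell coactivator Pou2af1 was at 0.0429 and 0 RPKM in KL and 1.67 and 1.55 RPKM in KLG4 (log2 difference 3.84, adjusted p 0.000736) and was the only one of 3 tested, through the KLG4 libraries alone. Pigr, which carries polymeric antibody across epithelia, was at 39.5 and 38.1 RPKM in KL and 81.9 and 76.5 RPKM in KLG4, a log2 difference of 1.03 (adjusted p 0.00174), and its call was lost without KLG4 replicate 1, with a log2 difference of 0.98.

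Some markers of B cells and plasma cells were also higher in KLG4. All 12 B cell markers were listed, 4 passed the filter, each through the KLG4 libraries alone, and all 4 were higher in KLG4, where 20.6% of all genes tested were higher. With no filter 11 were higher (21.5% of all genes), and where the mean had to reach 5 RPKM 0 were (18.7% of all genes). Fcer2a, the low-affinity IgE receptor, did not reach the filter and was at 0.742 and 1.42 RPKM in KL and 0.715 and 0.549 RPKM in KLG4. Cd79a, a signaling chain of the B cell receptor, was at 0.112 and 0.091 RPKM in KL and 1.98 and 1.60 RPKM in KLG4. The summed level of the list was 1.93 and 2.73 RPKM in KL and 10.9 and 10.2 RPKM in KLG4. Of 10 plasma cell markers 9 were tested, 6 of them through the KLG4 libraries alone, and 6 were higher and 1 was lower, where 20.6% of all genes tested were higher and 19.6% lower. Where the mean had to reach 5 RPKM, 1 was higher, and 18.7% of all genes tested were. Mzb1, a chaperone of antibody secreting cells, was at 0.121 and 0.658 RPKM in KL and 11.7 and 10.8 RPKM in KLG4, and Irf4, a regulator of plasma cell fate, at 0.023 and 0.147 RPKM against 3.57 and 3.70 RPKM. Sdc1, which epithelial cells also express, fell from 180 and 167 RPKM to 68.4 and 67.1 RPKM, and Xbp1, used by secretory cells of many kinds, was at 36.6 and 40.3 RPKM against 37.5 and 35.6 RPKM. Xbp1 and Fkbp11 (log2 differences -0.07 and -0.36) did not pass. Since Sdc1 and Xbp1 dominate its sum, that list was at 229 and 214 RPKM in KL and 137 and 134 RPKM in KLG4.

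Markers of other leukocytes, which the gate should leave out, were higher too. Against the 20.6% of all genes tested that were higher, all 6 leukocyte markers were higher in KLG4 (2 tested through the KLG4 libraries alone), with summed levels of 12.5 and 14.1 RPKM in KL and 121 and 125 RPKM in KLG4. Ptprc, which encodes CD45, was at 0.834 and 2.06 RPKM in KL and 26.7 and 27.4 RPKM in KLG4. Of 8 T cell markers 7 were tested and all 7 were higher, 6 of them tested only through the KLG4 libraries, being under 1 RPKM in both KL libraries (summed levels 1.42 and 2.61 RPKM against 53.4 and 60.4 RPKM). All 7 listed markers of monocyte-derived macrophages were higher, 3 of them tested through the KLG4 libraries alone (6.75 and 10.1 RPKM against 118 and 114 RPKM), as were 5 of 7 listed markers of alveolar macrophages, 1 of the 7 tested through the KLG4 libraries alone (33.0 and 41.3 RPKM against 267 and 275 RPKM). All 10 epithelial and alveolar type 2 (AT2) markers were lower in KLG4, where 19.6% of all genes tested were lower (10957 and 9150 RPKM in KL against 4438 and 4468 RPKM in KLG4), and Epcam, which the sort selected for, was at 638 and 420 RPKM in KL and 215 and 211 RPKM in KLG4. With either KLG4 library left out, 4 of these 10 were called lower, where the share of all genes called lower was 2.89% and 2.72%, and the median log2 difference of the list was -1.16 and -1.18. The part of these other cells in the V segment result was not tested. In bulk samples more cells of a type and more RNA per cell cannot be told apart.

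**Figure D5:**
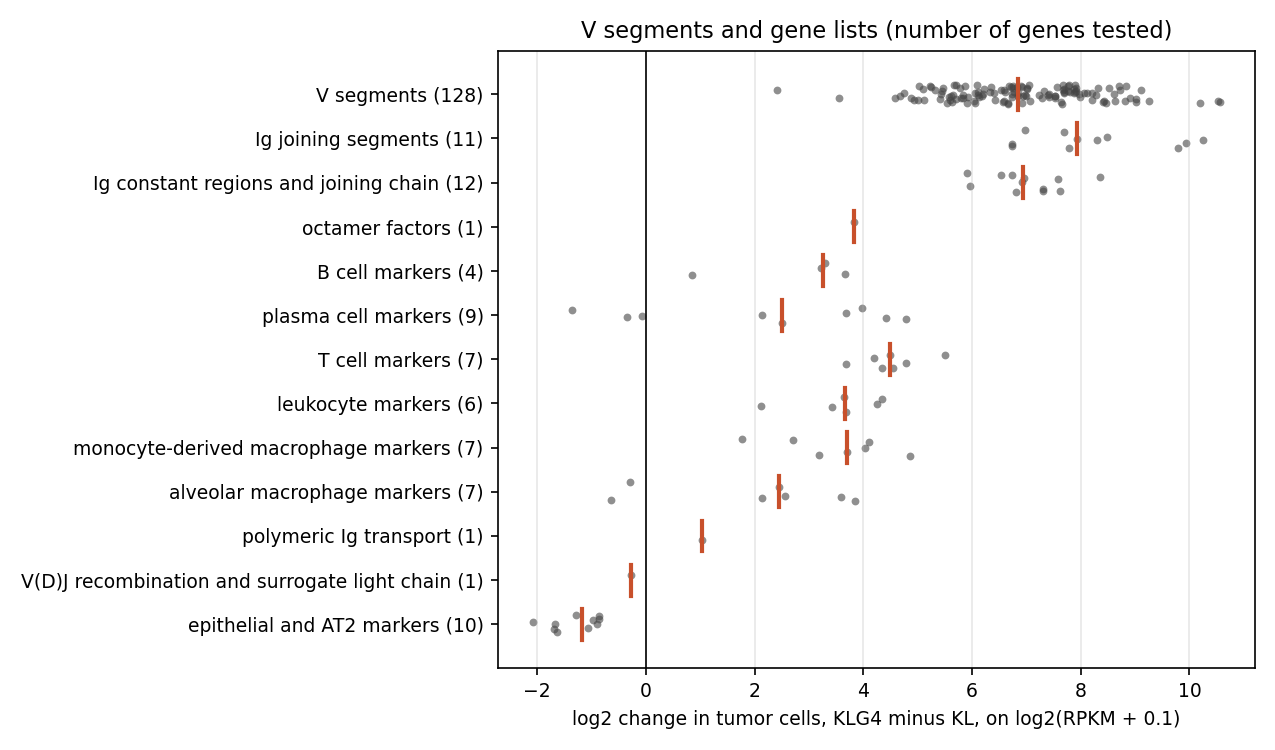
Log2 difference of KLG4 minus KL tumor cells, on log2(RPKM + 0.1), for each tested V segment and each tested gene of the lists, with an orange bar at the median and the number of genes tested in brackets. V segments (median 6.85), J segments (7.94) and constant regions (6.94) lie highest, leukocyte, T cell and macrophage lists have medians between 2.45 and 4.49, and epithelial and AT2 markers lie below 0.

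KL replicate 2, which held 8.30 times the V share of KL replicate 1, was also higher in some other genes of these lists. Igkc was at 6.72 RPKM in replicate 1 and 26.3 RPKM in replicate 2, and Mzb1 at 0.121 and 0.658 RPKM. Of the other plasma cell markers listed, Irf4, Slamf7, Tnfrsf13b and Xbp1 were higher in replicate 2. Fkbp11 (10.6 and 5.56 RPKM), Sdc1 (180 and 167 RPKM), Prdm1 (0.413 and 0.373 RPKM) and Derl3 (0.204 and 0.198 RPKM) were lower. Among leukocyte markers Ptprc was at 0.834 and 2.06 RPKM, Coro1a at 1.32 and 2.44 RPKM, and Cd53, the one marker of the list that was lower in replicate 2, at 8.40 and 6.15 RPKM. Among B cell markers Ebf1 was at 0.0056 and 0.0474 RPKM, Cd79b at 0.687 and 0.947 RPKM and Cd79a at 0.112 and 0.091 RPKM. With 1 library on each side these differences have no replicate check.

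In MDMs 4 V segments were listed, Ighv4-1, Ighv1-72, Igkv8-21 and Igkv14-111, and none differed between genotypes. In limma 0 of 4 passed an adjusted p of 0.05, as did 0.0% of the 10475 genes tested, with 706 genes at an unadjusted p under 0.05, and limma-voom on the recovered reads also called 0, with 673 at an unadjusted p under 0.05. Ighv4-1 was at 1.04 and 21.4 RPKM in KL and 2.13 and 3.34 RPKM in KLG4. Igkv14-111 followed the same order of libraries, at 0.586 and 13.1 RPKM in KL and 1.88 and 3.76 RPKM in KLG4. Ighv1-72 was at 4.49 and 1.46 RPKM in KL and 18.6 and 0.388 RPKM in KLG4, and Igkv8-21 was likewise highest in KLG4 replicate 1 and next in KL replicate 1, at 3.10 and 1.01 RPKM in KL and 7.23 and 1.41 RPKM in KLG4. The 4 segments thus formed a pair led by KL replicate 2 and a pair led by KLG4 replicate 1, each of a heavy and a kappa segment, and for all 4 the groups overlapped. Log2 differences were between -0.84 and 0.82, with standard errors of 0.93 to 1.81, so changes of several fold were not detectable.

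Together these 4 took 0.000361% and 0.00146% of reads in KL MDMs and 0.00117% and 0.000346% in KLG4 MDMs, a difference in mean log2 share of -0.19 with an exact p of 0.667. Without KL replicate 1, Ighv4-1 and Igkv14-111 were lower in KLG4, where 14.2% of all genes tested were lower, and this count of 2 rests on KL replicate 2 alone, the shallowest MDM library with 10.4 M reads. Ighv1-72 and Igkv8-21 were also among the highest segments of KLG4 tumor cells, at ranks 2 and 6 of 128, whereas Ighv4-1 and Igkv14-111 were at ranks 48 and 35. Of the other Ig genes Igkc was at 31.2 and 41.7 RPKM in KL MDMs and 36.7 and 22.8 RPKM in KLG4 MDMs (adjusted p 0.748). Among B cell markers 2 of 12 were listed in MDMs, and Cd79a was not among them.

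In TRMs no V segment was listed. Every gene of that table with a length (12964 of 13545) reached 1 RPM in at least 2 libraries, so V segments may have been read below that level, and no fit could be made. No J segment was listed either, while 5 of the 14 constant regions and joining chain were. Igkc was at 12.6 and 11.3 RPKM in KL TRMs and at 5.12 and 5.12 RPKM in KLG4 TRMs, with a log2 difference of -1.205 that did not pass (adjusted p 0.0531). Ighm, the IgM heavy chain constant region, was at 3.23 and 1.45 RPKM in KL and 1.94 and 1.40 RPKM in KLG4. The tables were scaled separately, so no test was made across them.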

How the data were processed

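RNA was measured in 12 libraries of tumor cells, TRMs and MDMs, 2 per genotype and cell type. A further 5 samples (CD8+ T cells and monocytes) were not analysed here. Libraries were poly(A), non-directional and paired-end. The authors deposited RPKM values per gene, with gene lengths, in a table for each cell type, aligned to GRCm38 with an Ensembl annotation. The submitters' processing notes name Trim Galore 0.6.4, HISAT2 2.0.5 and featureCounts 2.0.0, and reads were counted without strand and without multimapping reads. Some items are not reported here. Columns of the authors' own comparisons (fold changes and p-values) were not used.

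RPKM multiplied by gene length gave whole reads (tolerance 0.05, tested below 2000 reads), from which depth and read shares were taken. Genes that reached 1 RPKM in 2 or more libraries were tested within a table by limma 3.58.1 (R 4.3.3; trend, two-sided, Benjamini-Hochberg adjustment over all genes tested) on log2(RPKM + 0.1), and shares by exact permutation in scipy 1.17.1. The scripts were tested on simulated data. The same replicate numbers did not pair the libraries (correlations of deviations 0.0187 in tumor cells, -0.0596 in TRMs and 0.0545 in MDMs). The members and gene lists were chosen with earlier results of these data known. Named members were the 5 highest heavy and 5 highest kappa segments by mean RPKM in KLG4 and in KL tumor cells, all lambda segments and all members listed in MDMs. Alternatives were pseudocounts, filters, scalings, limma-voom, a replicate block and leaving out each library.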

Additional observations from a re-analysis of the deposited data

Results flagged for a closer look

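Among the immunoglobulin genes looked up in TRMs, 4 of the 5 listed had lower values in both KLG4 than in both KL libraries, as did 10.7% of all genes listed in TRMs. In tumor cells the same 4 had higher values in both KLG4 libraries, as did 32.5% of all genes tested there. The 4 were picked by a rule that required both patterns, so their opposite direction was fixed by that choice. Ighg2c, the IgG2c constant region, had a mean of 0.0845 RPKM in KLG4 TRMs and 2.48 RPKM in KL TRMs. In the separately scaled tumor cell table its means were 189 RPKM in KLG4 and 4.78 RPKM in KL. Igkc had a mean of 5.12 RPKM in KLG4 TRMs and 11.95 RPKM in KL TRMs, and of 1626 RPKM and 16.5 RPKM in KLG4 and KL tumor cells. Ighg1 had a mean of 0.131 RPKM and 0.866 RPKM in TRMs, and 22.35 RPKM and 0.303 RPKM in tumor cells. Jchain, the chain that joins polymeric antibody, had a mean of 0.284 RPKM and 0.658 RPKM in TRMs, and 106 RPKM and 0.467 RPKM in tumor cells. Levels can be read within a table only, and the difference in direction was not tested. In TRMs the differences of Igkc (adjusted p 0.0531) and of Ighg2c (adjusted p 0.0651) did not pass in limma, and Ighg1 and Jchain did not reach the filter. Some epithelial markers also had lower values in the KLG4 TRM libraries, with Krt8 at 29.8 and 33.2 RPKM in KL and 2.01 and 6.64 RPKM in KLG4 (adjusted p 0.0531), and Sftpb at 27.7 and 19.0 RPKM against 1.86 and 5.62 RPKM (adjusted p 0.0568). Sftpa1 was the one of 8 tested that passed, at 24.1 and 18.7 RPKM against 3.81 and 6.22 RPKM (adjusted p 0.0435). Epcam was at 16.7 and 19.5 RPKM against 13.1 and 27.1 RPKM. Cdh1 had higher values in KLG4, at 16.8 and 26.2 RPKM in KL and 33.3 and 39.9 RPKM in KLG4 (adjusted p 0.124). The part of these cells in the values of the 4 genes was not tested.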

How the results depend on the processing

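In tumor cells 126 V segments were higher in the main test, and 98 to 127 under other pseudocounts, filters, scalings, limma-voom, no trend and the replicate block (98 of 100 tested where the mean had to reach 5 RPKM, 127 with the block). Leaving out 1 library gave 111 to 128 (of all genes 11.6% and 11.3% were higher without KLG4 replicate 1 or 2, and 22.6% and 28.2% without KL replicate 1 or 2), and averaging the KLG4 pair, an alternative chosen after seeing the data, gave 112 (11.5% of all genes higher). A library left alone in its group was assumed to vary like the other group. Ighv1-12 ranged from -0.58 (without KL replicate 1) to 5.39 (without KL replicate 2) on the log2 scale. Ighv1-26 passed with pseudocount 1, the block, limma-voom or either KL library left out. Of the values of 20 named members under settings that keep all libraries, 184 kept their call and direction, 11 lost and 3 gained a call, and 0 reversed. The log2 share difference was 6.15 to 9.20 with 1 library left out.

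In MDMs 0 segments were called under all settings, the replicate block included, but 2 were called without KL replicate 1, where 2682 of 10475 genes were called (0 to 2 with 1 library left out). The MDM share difference ranged from -1.20 to 0.82. With 1 library left out, Ighv4-1 ranged from -2.96 to 1.28, Ighv1-72 from -2.46 to 2.81, Igkv8-21 from -0.32 to 1.96 and Igkv14-111 from -2.26 to 2.01. Under limma-voom Ighv1-72 was at -0.0221 and Igkv14-111 at 0.19, and under quantile scaling Igkv14-111 was at 0.11. The cause was not tested. The share without the top 5 segments could not be computed in MDMs, which list 4, and TRMs, which list none, gave no value. In KL tumor cells 3 reads at the median segment length are 0.226 and 0.274 RPKM, and some members were read below these values.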

Other observations

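V segments of the T cell receptor, which are joined by the same recombinase in T cells, were listed for 2 genes in tumor cells. Trbv16, a beta chain segment, was at 0 RPKM in both KL libraries and at 3.13 and 4.58 RPKM in KLG4, higher in limma (adjusted p 0.000316). It was listed and tested through the KLG4 libraries alone, so that its call is a description. Trdv4, a delta chain segment, was at 4.98 and 2.38 RPKM in KL and 4.08 and 2.83 RPKM in KLG4, with overlapping groups and a log2 difference of -0.02 (adjusted p 0.971).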
